A study of Mus musculus with 16 samples.

Results

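The interleukin-1 (IL-1) family genes Il1a, Il1b and Il18, the inhibitors Il1rn and Il1r2, the receptor gene Il1r1 and the processing genes Nlrp3 and Casp1 were followed through cirrhotic mouse liver and the inflammatory cells isolated from it. These 8 genes were read from 11 probes, chosen by the gene symbol of the probe's RefSeq accession, out of 41174 probes and 33269 gene names on each of 16 one-colour Agilent arrays. Il1a, Il1r2 and Il1rn had 2 probes each and the other 5 genes had 1, and the brighter probe stood for the gene.

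All mice were female C57Bl/6 fed an atherogenic high-fat diet for 40 weeks, a diet model of liver cirrhosis. Treated mice received adipose tissue-derived stem cells (ADSC), mesenchymal cells cultured from the inguinal fat of GFP-transgenic mice, as 2 injections of 100000 cells beneath the splenic capsule, and samples were taken 2 weeks after the last one. Control mice received phosphate-buffered saline (PBS). The 4 groups of 4 arrays were inflammatory cells ADSC and inflammatory cells PBS, which are cells recovered from the liver, and liver ADSC and liver PBS, which are whole liver, with ADSC arrays numbered 7 to 10 and PBS arrays 11 to 14. Nothing in the labels ties a number to 1 animal, and the p-values therefore measure only how far these samples spread. The extraction protocol in the labels speaks of cells from a tumor and of blood, which leaves the isolation of the inflammatory cells unsettled.

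IL-1 alpha (Il1a) and IL-1 beta (Il1b) are inflammatory cytokines that both signal through the receptor Il1r1, with Il1rap as its partner chain and Myd88 as its adaptor. The receptor antagonist Il1rn occupies Il1r1 without a signal, and Il1r2 is a decoy receptor that binds the cytokines but has no signalling domain. The precursors of IL-1 beta and of IL-18 (Il18) are cut by caspase-1 (Casp1) after sensors such as Nlrp3 assemble an inflammasome. In liver, neutrophils, monocytes and Kupffer cells are known sources of IL-1 beta, and hepatocytes and sinusoidal cells carry Il1r1.

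The stretches around the transcription starts of Il1b and Il1r2 are shown because these 2 genes passed the test between treatments, and that of Il1a because it is the other IL-1 agonist, encoded beside Il1b. Each is 300 bases, 250 before and 50 from the start on, from RefSeq (GRCm38.p6), written 5′ to 3′ on the gene's strand. Capitals mark any match, on either strand, to 1 of 5 motifs. They are a loose kappaB motif (GGG and CC with any 5 bases between them), the PU.1 core written GAGGAA, the AP-1 motif written TGANTCA, the TATA box written TATAAA and the C/EBP motif written TTGCNNAA. No matches overlap in these windows.
Il1b, chr2:129371090-129371389, minus strand: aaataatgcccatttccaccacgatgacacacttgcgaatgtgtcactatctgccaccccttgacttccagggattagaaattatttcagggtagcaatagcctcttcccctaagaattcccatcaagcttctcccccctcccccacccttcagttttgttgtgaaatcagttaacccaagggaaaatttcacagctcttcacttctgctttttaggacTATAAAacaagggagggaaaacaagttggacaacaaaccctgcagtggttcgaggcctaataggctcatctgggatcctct
Il1r2, chr1:40085843-40086142, plus strand: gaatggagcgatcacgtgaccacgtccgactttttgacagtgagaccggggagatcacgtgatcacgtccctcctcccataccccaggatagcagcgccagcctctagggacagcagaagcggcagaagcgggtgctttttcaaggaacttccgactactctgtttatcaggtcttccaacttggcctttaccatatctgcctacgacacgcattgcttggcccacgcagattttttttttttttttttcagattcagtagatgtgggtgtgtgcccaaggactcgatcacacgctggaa
Il1a, chr2:129309923-129310222, minus strand: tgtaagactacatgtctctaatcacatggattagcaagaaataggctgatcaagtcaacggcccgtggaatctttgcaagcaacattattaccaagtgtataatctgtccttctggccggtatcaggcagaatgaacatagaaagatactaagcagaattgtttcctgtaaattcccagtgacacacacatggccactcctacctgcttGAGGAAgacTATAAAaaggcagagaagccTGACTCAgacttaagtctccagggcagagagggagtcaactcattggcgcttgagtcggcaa
The Il1b window held a TATA box 31 bases before the start, and the Il1a window held the PU.1 letters at -41, the TATA letters at -32 and the AP-1 letters at -12, counted from the start. None of the 5 motifs was found in the Il1r2 window, which says only that these letters are not in it. The TATA letters occur in 13.6% of 32851 RefSeq windows of this length, the PU.1 letters in 28.3%, the AP-1 letters in 7.81%, the C/EBP letters in 10.8% and the loose kappaB letters in 50.8%, so a match is only a description. The 8 genes have 12 annotated starts. The kappaB letters were found at 7 of them, in Casp1, Il1r1, Il1rn and Nlrp3. Overlapping windows of Il1rn share the same match, so the 7 are not all separate sites.

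The number of arrays limits the precision of every value. Arrays differed in brightness, with a 75th percentile of processed signal between 123.8 (inflammatory cells ADSC 8) and 551.9 (liver PBS 12), and 51.6% to 66.3% of their spots were well above background. All levels below are log2 signals relative to that percentile, and levels of different probes are not comparable. On the inflammatory cell arrays 10 of 10 T and NK cell genes were higher, and 7 of 7 hepatocyte genes lower, than in liver after both treatments. Macrophage genes were mixed: of 11, 4 were higher and 3 lower after ADSC, and 5 higher and 1 lower after PBS. Of all 22139 genes tested, 45.4% were higher and 33.2% lower after ADSC, and 44.9% and 31% after PBS. The inflammatory cell arrays also held exocrine pancreas transcripts: 9 of 10 such genes were higher than in liver after ADSC and 10 of 10 after PBS. The mean of the 10 ranged from -1.70 to 8.60 over the ADSC arrays and from 1.79 to 8.49 over the PBS arrays. Arrays ADSC 10, PBS 11 and PBS 13 were the rich ones. The 16 arrays lay on 5 slides scanned on 3 days.

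In inflammatory cells, the question was whether the stem cells changed the IL-1 system. Il1b and its decoy receptor Il1r2 fell after ADSC, with log2 differences of -1.93 ± 0.34 and -2.13 ± 0.38 (SE, 8 arrays), which is 3.81-fold and 4.38-fold lower. The limma adjusted p-values over all 20165 genes tested were 0.0259 for Il1b and 0.0259 for Il1r2. Of the 8 genes, 8 were tested, 2 passed and both were lower, against 1.21% of all genes tested that passed in either direction, 1.07% that passed as lower and 0.134% that passed as higher. At an unadjusted p under 0.05 there were 5 of the 8, against 18.4% of all genes tested. The median log2 difference was -0.96 over the 8 genes and 0.03 over all genes tested, and 7 of the 8 estimates were below 0. The 8 genes were chosen with earlier results of these data known. Here and below, their counts and medians beside all genes are therefore descriptions only. In a mixed cell sample, fewer cells of a type and less RNA per cell cannot be told apart.

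**Figure D1:**
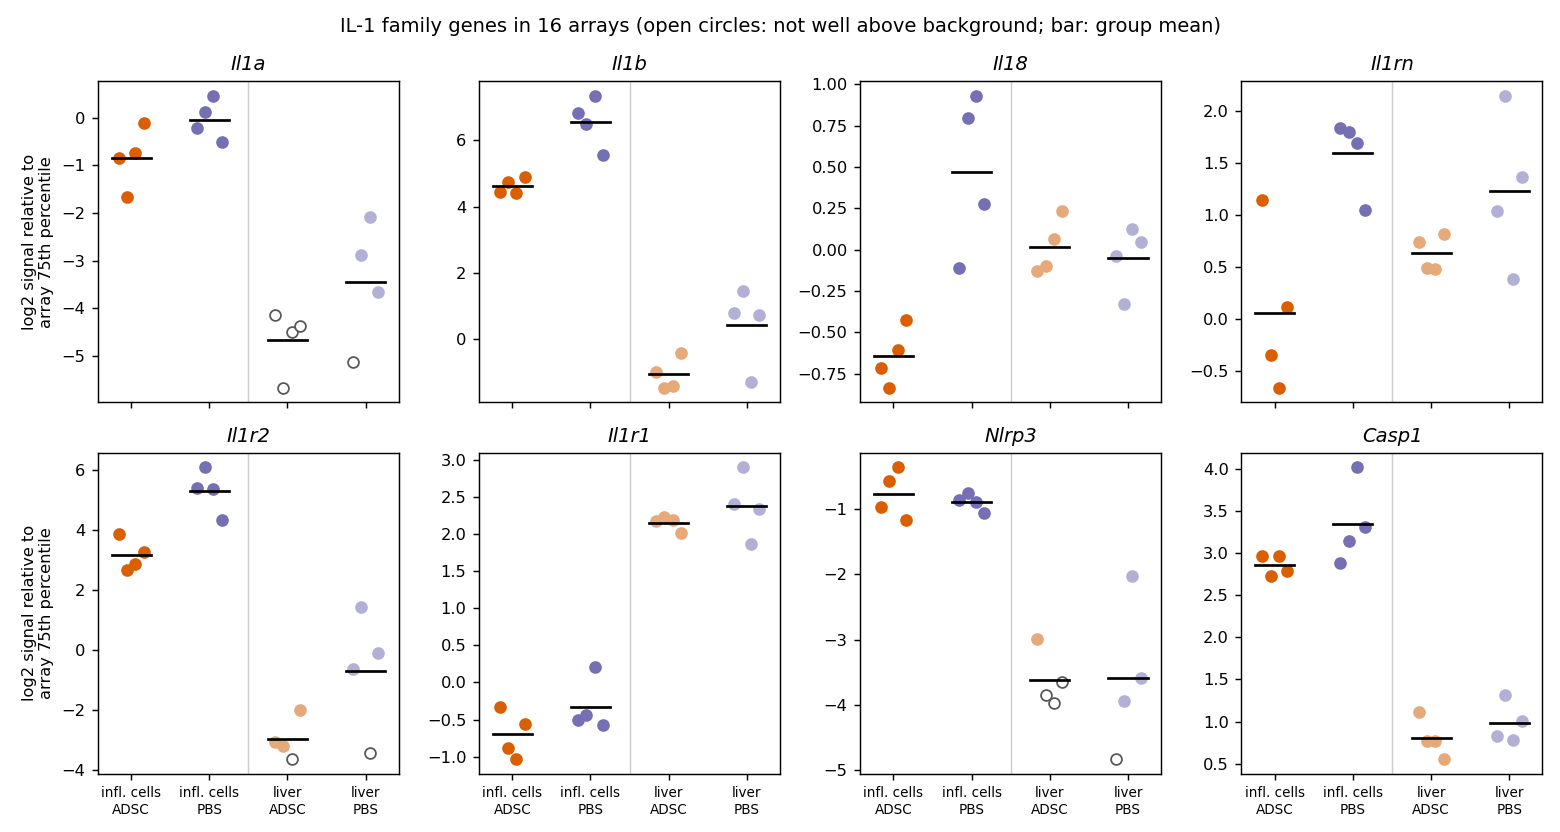
Log2 signal minus that of the array's 75th percentile for the 8 genes (1 panel each, with its own scale) in the 4 groups of 4 arrays. Points are arrays, open circles are arrays on which the probe was not well above background, and bars are group means. The 4 ADSC points of Il1b, Il18 and Il1r2 lie below the 4 PBS points in inflammatory cells, and the liver PBS points of Il1r2 spread widest (SD 2.04).

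Il1b, the main secreted IL-1 agonist of phagocytes, was read by a probe with 8 to 10 usable spots on each array. In inflammatory cells its level was 4.43, 4.74, 4.41 and 4.90 on ADSC arrays 7, 8, 9 and 10, against 6.82, 6.48, 7.34 and 5.56 on PBS arrays 11, 12, 13 and 14. Every ADSC array lay below every PBS array, and the ADSC arrays were close together (SD 0.24) while the PBS arrays were spread (SD 0.75). The spread of the repeated spots within an array was smaller, with a median SD of 0.08. The exact two-sided permutation test gave p = 0.0286, the smallest that 4 against 4 allows, and 0.152 after Benjamini-Hochberg adjustment over the 16 such tests.

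Whole liver held far less Il1b signal. There the level was -0.98, -1.45, -1.39 and -0.40 on ADSC arrays 7 to 10, against 0.78, 1.45, -1.27 and 0.73 on PBS arrays 11 to 14. Of the PBS arrays, 3 were above all ADSC arrays, and PBS 13 lay among the ADSC arrays. The difference was -1.48 ± 0.54 (SE, limma, unadjusted p = 0.0249, adjusted p = 0.998), so it did not pass, and the exact permutation p was 0.0857.

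Il18, a cytokine of the same family that is made in an inactive form by many cells, differed in inflammatory cells but not past the threshold. Its level was -0.71, -0.83, -0.61 and -0.43 on ADSC arrays 7 to 10, against -0.11, 0.79, 0.93 and 0.27 on PBS arrays 11 to 14. All 4 ADSC arrays were below all 4 PBS arrays, and PBS 11 was the nearest to them. The difference of -1.12 ± 0.26 (SE) had a limma adjusted p of 0.0758. Of the 8 arrays left out in turn, only the absence of PBS 11 made it pass (-1.31, limma adjusted p = 0.0459). The adjusted p rose as high as 0.244 in the other fits. In liver Il18 did not pass, at 0.02 ± 0.17 after ADSC and -0.05 ± 0.20 after PBS (SD, n = 4 each, limma adjusted p = 0.998).

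Il1a, the agonist that is active without cleavage, was dim. Its level in inflammatory cells was -0.84, -1.66, -0.74 and -0.11 on ADSC arrays 7 to 10, against -0.22, 0.11, 0.46 and -0.51 on PBS arrays 11 to 14. ADSC 10 overlapped the PBS arrays and the other 3 ADSC arrays lay below them. The difference was -0.80 ± 0.34 (SE, limma adjusted p = 0.252). In liver 0 ADSC arrays and 3 of 4 PBS arrays had it well above background (PBS 12, 13 and 14, at -2.89, -2.09 and -3.66), and it was not tested there with limma. The measured means were -4.67 after ADSC and -3.44 after PBS. PBS 11 (-5.13, not well above background) lay below ADSC 7, 9 and 10. The exact permutation p was 0.171, so a difference in liver was not shown.

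Il1r2, the decoy receptor, is known as a surface and shed protein of neutrophils and monocytes. In inflammatory cells its level was 3.87, 2.66, 2.86 and 3.24 on ADSC arrays 7 to 10, against 5.39, 6.09, 5.35 and 4.33 on PBS arrays 11 to 14. No ADSC array reached any PBS array. In liver the level was -3.06, -3.23, -3.65 and -2.01 on ADSC arrays 7 to 10, against -0.65, 1.41, -3.46 and -0.10 on PBS arrays 11 to 14, and the probe was not well above background on ADSC 9 and PBS 13. Again 3 PBS arrays stood above all ADSC arrays and PBS 13 did not. The liver difference of -2.29 ± 0.91 (SE, limma unadjusted p = 0.0349, adjusted p = 0.998) was about the size of that in inflammatory cells, with a larger error.

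Il1rn, the receptor antagonist, is made by phagocytes and, in the acute phase, by hepatocytes. In inflammatory cells its level was 1.14, -0.34, -0.66 and 0.11 on ADSC arrays 7 to 10, against 1.84, 1.80, 1.70 and 1.05 on PBS arrays 11 to 14. ADSC 7 lay within the PBS range and the other 3 ADSC arrays below it. The difference was -1.53 ± 0.37 (SE, limma adjusted p = 0.0831). Of the 8 arrays left out in turn, only the absence of ADSC 7 made it pass (-1.89, limma adjusted p = 0.0172). The adjusted p rose as high as 0.241 in the other fits. In liver Il1rn was at 0.74, 0.49, 0.48 and 0.83 on ADSC arrays 7 to 10, against 1.04, 2.15, 0.39 and 1.37 on PBS arrays 11 to 14, with PBS 13 the lowest of all 8. That difference, -0.60 ± 0.33 (SE), did not pass (limma adjusted p = 0.998).

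Il1r1, the signalling receptor, showed no difference past the threshold. In inflammatory cells it averaged -0.70 ± 0.32 after ADSC and -0.33 ± 0.36 after PBS (SD, n = 4 each), a difference of -0.37 ± 0.26 (SE, limma adjusted p = 0.445). In liver it averaged 2.15 ± 0.10 after ADSC and 2.37 ± 0.42 after PBS (SD, n = 4 each, limma adjusted p = 0.998). The arrays of both treatments overlapped in both sample types.

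The inflammasome genes did not pass either. Nlrp3, the sensor, had the one positive estimate in inflammatory cells, with levels of -0.97, -0.58, -0.36 and -1.17 on ADSC arrays 7 to 10, against -0.86, -0.76, -0.89 and -1.06 on PBS arrays 11 to 14 (difference 0.12 ± 0.23, SE, limma adjusted p = 0.812). The groups lay over each other, and without ADSC 9 the estimate was -0.01. Casp1, the protease, stood at 2.96, 2.72, 2.96 and 2.79 on ADSC arrays 7 to 10, against 2.89, 3.14, 4.02 and 3.31 on PBS arrays 11 to 14 (difference -0.48 ± 0.26, SE, limma adjusted p = 0.341). PBS 13 was its highest array and PBS 11 lay among the ADSC arrays. In liver Nlrp3 was above background on 1 of 4 ADSC arrays and 3 of 4 PBS arrays, with means of -3.61 after ADSC and -3.59 after PBS, and Casp1 averaged 0.80 ± 0.23 after ADSC and 0.98 ± 0.24 after PBS (SD, n = 4 each).

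**Figure D2:**
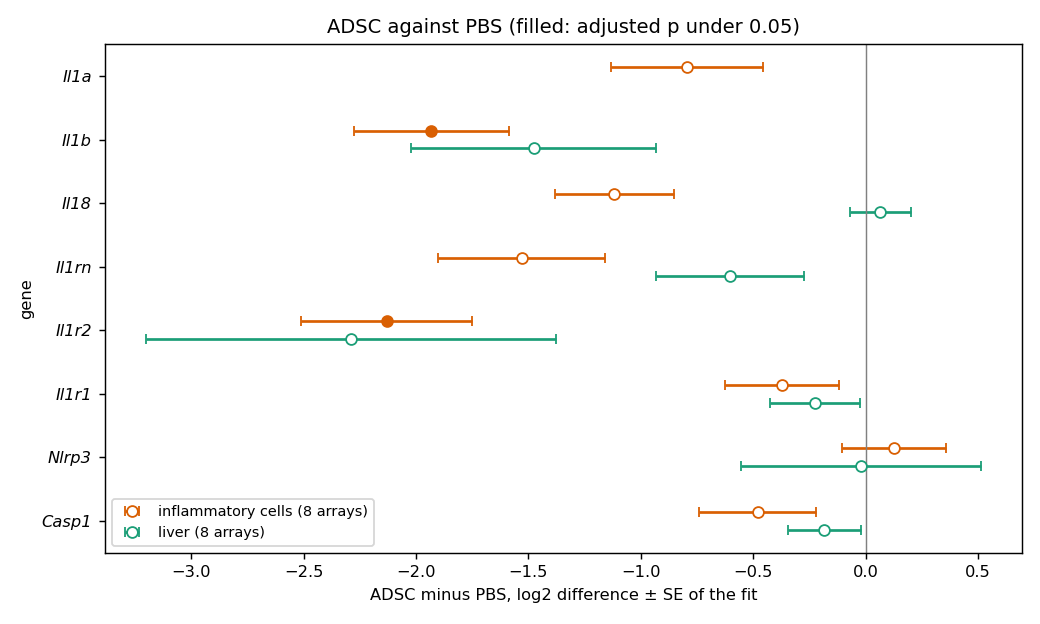
ADSC minus PBS log2 difference of each gene with the standard error of the limma fit, in inflammatory cells (orange) and liver (green). Filled points, Il1b and Il1r2 in inflammatory cells, have an adjusted p under 0.05. Il1a has no liver point because its probe was not tested there with limma.

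In whole liver, 7 of the 8 genes were tested and 0 passed, beside 0% of the 17321 genes tested with limma. At an unadjusted p under 0.05 there were 2 of the 7, Il1b and Il1r2, against 4.65% of all genes tested. The median log2 difference was -0.22 over the 7 genes and 0.04 over all genes. None of the 7 had all ADSC arrays below all PBS arrays, a pattern that 1.21% of the genes tested showed. In inflammatory cells 3 of the 8 showed it (Il1b, Il18 and Il1r2), against 6.68% of the genes tested.

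The calls for Il1b and Il1r2 were lost when any of several single arrays was left out. For Il1b the adjusted p was 0.0594 without PBS 11, 0.0817 without PBS 12, 0.0574 without ADSC 8, 0.0922 without ADSC 9 and 0.0602 without ADSC 10, with differences between -2.26 and -1.67 over the 8 arrays left out in turn. For Il1r2 it was 0.0554 without PBS 11, 0.0791 without PBS 12, 0.0565 without PBS 13, 0.0685 without ADSC 8, 0.0922 without ADSC 9 and 0.0717 without ADSC 10, with differences between -2.45 and -1.86. Without the pancreas-rich arrays PBS 11, PBS 13 and ADSC 10, the differences were -1.50 and -2.08, with adjusted p-values of 0.137 and 0.138, and 0 of all genes passed in that fit (4600 at an unadjusted p under 0.05). Within scan day 2, with 2 arrays of each treatment, they were -2.07 and -2.47, and within day 3, with 2 ADSC arrays and 1 PBS array, -2.69 and -2.30. The 2 slides that held 1 array of each treatment gave -2.08 and -2.05 for Il1b and -2.73 and -2.22 for Il1r2.

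Neutrophil genes moved with Il1b and Il1r2. Of 15 measured neutrophil genes, such as Ngp, Camp and Elane (granule proteins), 12 fell in inflammatory cells and 0 rose. Of all 20165 genes tested there, 1.07% passed as lower and 0.134% as higher, and 6.68% had all ADSC arrays below all PBS arrays. Gene lists were also chosen with earlier results of these data known, so their counts are descriptions only. The mean of the 15 was 1.39, 1.65, 1.18 and 0.91 on ADSC arrays 7 to 10, against 4.88, 5.59, 4.05 and 3.76 on PBS arrays 11 to 14, and no array of one treatment reached the other. Of 11 macrophage genes 3 fell, with list means from 1.67 to 1.99 over the ADSC arrays and from 2.87 to 3.24 over the PBS arrays. Of 8 Kupffer cell genes 2 fell, with list means from -0.26 to 1.33 over the ADSC arrays and from 1.36 to 2.33 over the PBS arrays. Their part in the falls of Il1b and Il1r2 was not tested, and no gene passed in the fit without the pancreas-rich arrays. Cell isolation stress genes (heat shock and immediate early genes) had list means of 5.64 ± 0.40 after ADSC and 5.81 ± 0.57 after PBS (SD, n = 4 each), with 0 of 14 past the threshold, and B cell genes had 1.98 ± 0.27 after ADSC and 1.08 ± 0.51 after PBS, with 0 of 8 past it.

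**Figure D3:**
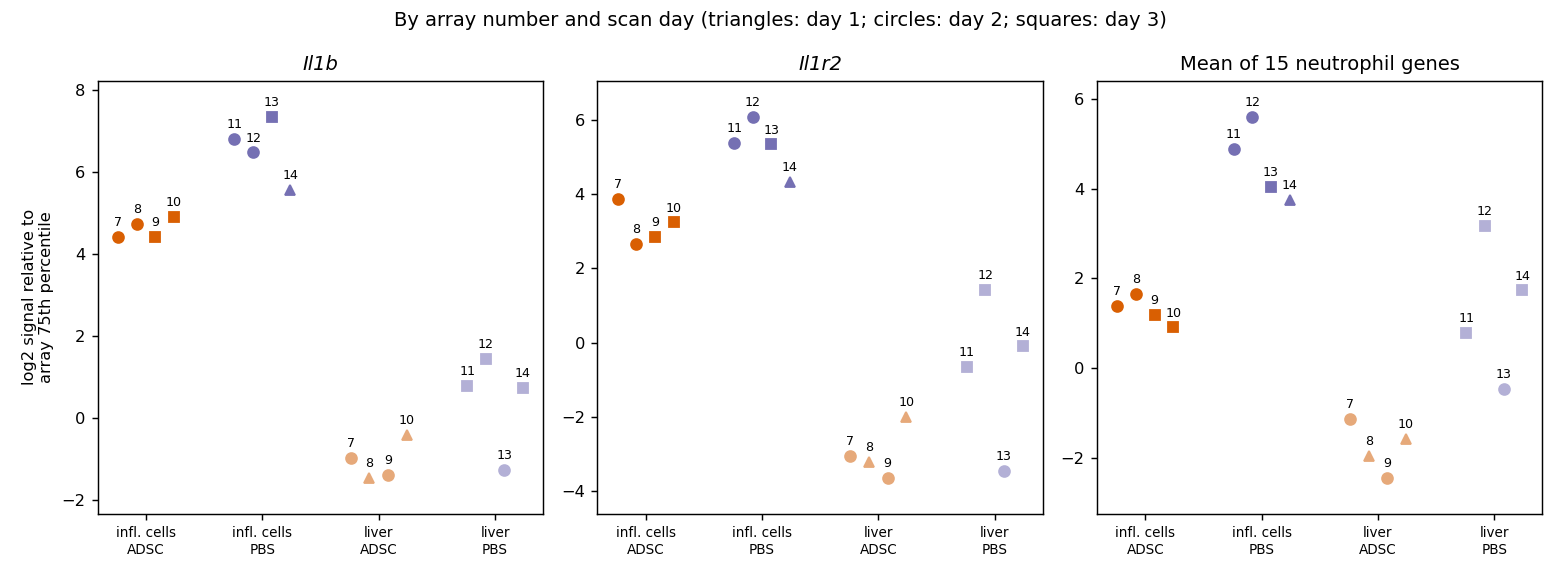
Log2 signal minus that of the array's 75th percentile of Il1b and Il1r2, and the mean of 15 neutrophil genes, by array, with the array number above each point and the scan day as its shape. In liver, PBS 13 (scan day 2) is the lowest PBS array in each panel, and PBS 12 the highest.

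Among the liver PBS arrays the same ones were highest and lowest for several genes. PBS 12 had the highest level of Il1b, Il1r2, Il1rn and Il1r1 and the highest neutrophil mean, at 3.16, and PBS 13 had the lowest of each, with a neutrophil mean of -0.47. The neutrophil mean over the liver ADSC arrays ran from -2.44 to -1.13. PBS 13 was also the only liver PBS array that shared a slide or scan day with a liver ADSC array. Within that slide the ADSC minus PBS differences of Il1b, Il1r2 and Il1rn were 0.29, 0.39 and 0.35, and within that scan day 0.09, 0.10 and 0.22, opposite in sign to the pooled values. Without PBS 13 they were -2.04, -3.21 and -0.89, with limma adjusted p-values of 0.172, 0.213 and 0.477. Since all other liver PBS arrays were scanned on a day without liver ADSC arrays, day and treatment cannot be told apart for them.

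Where the genes are expressed was asked by setting inflammatory cells against whole liver. Il1b, Il1r2, Il1a, Nlrp3 and Casp1 were higher in inflammatory cells after both treatments and Il1r1 was lower. After ADSC 5 of the 8 genes were higher and 2 lower, beside 45.4% and 33.2% of 22139 genes tested, and after PBS 6 were higher and 1 lower, beside 44.9% and 31% of the genes. Since 78.6% of all genes passed after ADSC and 75.9% after PBS, the share of the 8 that passed is near the background. Isolation stress genes moved the same way, with 14 of 14 higher in inflammatory cells after both treatments and a median log2 difference of 4.50 after ADSC and 4.66 after PBS, and their part in the levels of Il1b was not tested.

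Il1b was 51.2-fold higher in inflammatory cells than in liver after ADSC (log2 5.68 ± 0.48, SE) and 70.1-fold higher after PBS (6.13 ± 0.48, SE). Il1r2 was 70.8-fold higher after ADSC (6.15 ± 0.74, SE) and 63.5-fold higher after PBS (5.99 ± 0.74, SE). For both genes every inflammatory cell array lay above every liver array, so the lowest inflammatory cell group, ADSC, still stood above liver PBS. Il1a after ADSC was at least 6.58-fold higher in inflammatory cells, since its liver arrays were not well above background (limma adjusted p = 6.74e-06), and after PBS it was 10.6-fold higher with 3 of 4 liver arrays above background.

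Casp1 was 4.17-fold higher in inflammatory cells than in liver after ADSC and 5.11-fold higher after PBS. Nlrp3 was 7.20-fold and 6.50-fold higher in inflammatory cells after ADSC and after PBS, with its liver probe above background on 1 of 4 ADSC and 3 of 4 PBS arrays. Their limma adjusted p-values were all 2.81e-05 or lower. Il1r1 was the one gene of the 8 that stood lower in inflammatory cells after both treatments, 7.20-fold after ADSC (log2 -2.85 ± 0.23, SE) and 6.50-fold after PBS (-2.70 ± 0.23, SE). No inflammatory cell array reached the level of any liver array for it. In the same comparison 7 of 7 hepatocyte genes were lower after both treatments. Of 10 endothelial and stellate cell genes, 7 were lower after ADSC and 8 after PBS. Of all 22139 genes tested, 33.2% were lower after ADSC and 31% after PBS. The part of these cells in the level of Il1r1 was not tested.

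Il18 and Il1rn were the genes near the liver level. After ADSC, Il18 stood below its liver level in inflammatory cells (-0.66 ± 0.21, SE, limma adjusted p = 0.0102) and after PBS it stood above it (0.52 ± 0.21, SE, adjusted p = 0.0375), and the median over all genes was 0.36 after ADSC and 0.35 after PBS. The ADSC difference was -0.24 (adjusted p = 0.307) when the scaling percentile was taken over the probes detected on all arrays, a scaling that moved the median of all genes to 0.78. The PBS difference lost its pass without liver PBS 11 (adjusted p = 0.0602), liver PBS 12 (0.105), liver PBS 14 (0.0510), inflammatory cells PBS 12 (0.113) or inflammatory cells PBS 13 (0.115). Il1rn passed in neither, at -0.57 ± 0.38 after ADSC (SE, limma adjusted p = 0.177) and 0.36 ± 0.38 after PBS (SE, adjusted p = 0.395). Of the 16 arrays left out in turn, only inflammatory cells ADSC 7 made its ADSC difference pass (-0.93, limma adjusted p = 0.0209). The adjusted p rose as high as 0.451 in the other fits.

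The order of the 4 groups followed these differences. For Il1b and Il1r2 it ran, from high to low, inflammatory cells PBS, inflammatory cells ADSC, liver PBS, liver ADSC, and only the 2 liver groups overlapped. For Il1a and Casp1 the order was the same, with overlap between treatments in both sample types. For Il1r1 both liver groups came first, PBS above ADSC, and then the inflammatory cells, PBS above ADSC, again with overlap between treatments. For Nlrp3 it was inflammatory cells ADSC, inflammatory cells PBS, liver PBS and liver ADSC, with overlap between treatments. For Il1rn each neighbouring pair overlapped, and for Il18 only inflammatory cells ADSC stood apart, below the other 3 groups.

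Whether the ADSC difference itself differed between inflammatory cells and liver was tested as an interaction over all 16 arrays. None of the 8 genes passed with limma, beside 0.0316% of 22139 genes tested, and 1 of the 8 had an unadjusted p under 0.05, against 10.1% of the genes. That gene was Il18, with an interaction of -1.18 ± 0.30 (SE, unadjusted p = 0.00134, adjusted p = 0.196, adjusted p between 0.0306 and 0.393 over the other settings and arrays left out). For Il1b the interaction was -0.45 ± 0.68 and for Il1r2 0.16 ± 1.04 (SE), so a difference of the effect between sample types was not shown, and the errors are too wide to call the effects alike.

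**Figure D4:**
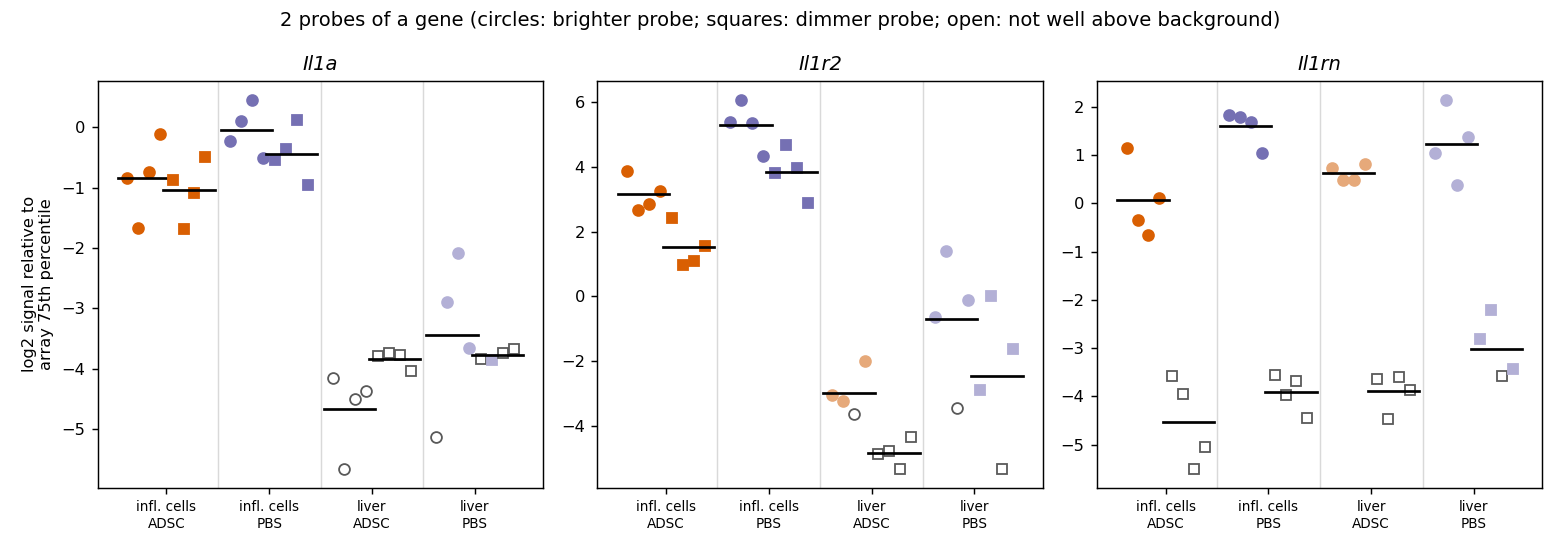
Log2 signal minus that of the array's 75th percentile of both probes of Il1a, Il1r2 and Il1rn in the 4 groups. Circles are the brighter probe, squares the dimmer one, open symbols are arrays on which it was not well above background, and bars are group means. Both Il1r2 probes are lower on the ADSC arrays than on the PBS arrays in inflammatory cells, and the dimmer Il1rn probe is above background only on 3 liver PBS arrays.

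The second probes showed how far the results carry over. The second Il1r2 probe gave levels between 0.98 (ADSC 8) and 2.42 (ADSC 7) on the inflammatory cells ADSC arrays, against 2.88 (PBS 14) to 4.69 (PBS 12) on the PBS arrays, a difference of -2.32 ± 0.41 (SE, limma over probes, adjusted p = 0.0260). It fell as the first probe did. In liver it was above background on 0 ADSC arrays and on PBS 11, 12 and 14, while PBS 13 (-5.35) was as low as ADSC 9 (-5.35). The liver difference of this probe was not tested. The second Il1a probe differed by -0.60 ± 0.31 in inflammatory cells (SE, adjusted p = 0.320), with 0 liver ADSC arrays and 1 liver PBS array above background. Its liver means were close, at -3.84 after ADSC and -3.78 after PBS. The second Il1rn probe was above background only on liver PBS 11, 12 and 14, so it gave no value in inflammatory cells, at levels of -2.81, -2.22 and -3.44.

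Around the 8 genes, the same 2 treatment comparisons were read in lists of pathway genes. Beside these lists, 1.07% of all genes tested passed as lower and 0.134% as higher in inflammatory cells, and 0% passed in liver. Among other IL-1 receptors and binding proteins, 1 of 6 tested genes fell in inflammatory cells and 0 rose. It was Il18bp, the soluble inhibitor of IL-18, at 0.39, 0.19, 0.74 and 0.99 on ADSC arrays 7 to 10, against 1.68, 2.90, 2.43 and 2.21 on PBS arrays 11 to 14 (difference -1.73 ± 0.29, SE, limma adjusted p = 0.0207). No ADSC array reached a PBS array, while in liver it averaged 2.19 ± 0.32 after ADSC and 2.13 ± 0.15 after PBS (SD, n = 4 each). The adjusted p was 0.0681 without PBS 12, 0.0574 without ADSC 8 and 0.0694 without ADSC 9. Il18rap and Il1rap, partner chains of the IL-18 and IL-1 receptors, had differences of -0.94 ± 0.22 (SE, adjusted p = 0.0772) and -1.24 ± 0.37 (SE, adjusted p = 0.140).

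Among 9 further inflammasome genes tested, 1 fell in inflammatory cells and 0 rose. Mefv, which encodes pyrin, an inflammasome sensor, was at 3.14, 2.17, 2.06 and 2.29 on ADSC arrays 7 to 10, against 3.63, 3.71, 3.63 and 3.63 on PBS arrays 11 to 14 (difference -1.24 ± 0.26, SE, limma adjusted p = 0.0497). The PBS arrays were close together, and ADSC 7 came nearest to them. Of the 8 arrays left out in turn, ADSC 7 was the one whose absence kept the call, and without each of the other 7 (PBS 11, 12, 13 or 14 and ADSC 8, 9 or 10) the adjusted p lay between 0.0656 and 0.181. Pycard, the inflammasome adaptor, was at -0.88 ± 0.29 (SE, adjusted p = 0.176) and Gsdmd, the pore-forming substrate of caspase-1, at -0.50 ± 0.20 (SE, adjusted p = 0.236).

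Of 14 genes of IL-1 signal transduction 0 passed in inflammatory cells, and the smallest p was that of the adaptor Myd88 (-0.77 ± 0.21, SE, limma adjusted p = 0.116). Irak3 and Irak4, an inhibitor and a kinase of the pathway, were at -0.50 ± 0.28 and -0.49 ± 0.28 (SE, adjusted p = 0.347 and 0.363). The median over the 14 was -0.17. Of 16 target genes of IL-1 signalling 2 fell and 0 rose: Cxcl5, a neutrophil-attracting chemokine, at -4.37 ± 0.43 (SE, adjusted p = 0.00247), and Lcn2, a siderophore-binding protein of neutrophils and hepatocytes, at -4.14 ± 0.45 (SE, adjusted p = 0.00268). Lcn2 was at 1.82, 1.71, 1.09 and 1.20 on ADSC arrays 7 to 10, against 5.82, 6.78, 5.47 and 4.28 on PBS arrays 11 to 14. Cxcl5 was well above background on ADSC 7 alone among the ADSC arrays (at -3.20), against levels of -0.07, 0.91, -0.63 and 0.08 on PBS arrays 11 to 14. For both genes all ADSC arrays were far below all PBS arrays, and the size of the Cxcl5 difference depends on the background correction, at -1.75 after the normexp correction. Other targets did not pass, such as Cxcl2 at -1.54 ± 0.36 (SE, adjusted p = 0.0711), Ptgs2 at -1.37 ± 0.32 (SE, adjusted p = 0.0767) and Cxcl1 at 0.55 ± 0.49 (SE, adjusted p = 0.567). The median of the 16 targets was -0.33. The part of the lower neutrophil signal in the falls of Cxcl5 and Lcn2 was not tested.

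Of the other IL-1 family ligands, 5 of 10 listed symbols were on the array. The list holds both the older and the newer name of some genes, such as Il1f9 and Il36g, so a symbol not found need not be a missing gene. In inflammatory cells 2 were tested, with 0 past the threshold. Il1f9 (IL-36 gamma) was at -1.53 ± 0.36 (SE, limma adjusted p = 0.0770) and Il1f6 (IL-36 alpha), well above background on 4 of 4 ADSC and 2 of 4 PBS arrays, at 1.59 ± 0.59 (SE, adjusted p = 0.208), against a median of 0.03 over all genes. In liver 0 of 1 ligand, 0 of 4 receptor, 0 of 9 inflammasome, 0 of 14 signalling and 0 of 13 target genes passed. The target median was -0.53 with 13 of 13 estimates below 0, against a median of 0.04 over all genes tested. All liver PBS arrays but PBS 13 were scanned on a day without liver ADSC arrays. The smallest p-values there were those of Cxcl1 (-1.34 ± 0.24, SE), Lcn2 (-1.92 ± 0.35, SE) and Irak3 (-0.93 ± 0.17, SE), each with a limma adjusted p of 0.559. With array weights Lcn2 (-1.78 ± 0.24, SE) and Irak3 (-0.88 ± 0.12, SE) passed in liver, each with a limma adjusted p of 0.0498. Of 13 other settings this was the only 1 in which they passed. Each passed in 0 of the 8 fits with 1 array left out.

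The genes whose level ran most like that of each of the 8 over the 16 arrays were found among 13195 genes with a symbol. These correlations are descriptions of points that share 4 groups, so the gap between inflammatory cells and liver enters each of them. Il1b was most like Clec4e (Pearson r = 0.990), Lilra6 (0.990) and Hcar2 (0.988), and Il1r2 was most like Mgst2 (0.989), Clec4e (0.987) and Slfn4 (0.986). Casp1 was most like Hcst (0.993), Gng2 (0.993) and Cd52 (0.992), and Il1r1 most like Gpx7 (0.987), Rhoc (0.986) and Syt12 (0.984). Among the 8 themselves, Il1b and Il1r2 had the highest r (0.983) and Il1r1 and Nlrp3 the lowest (-0.942).

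When the group means were taken away, what was left showed which genes varied together from array to array, pooled over the 4 groups. The liver PBS arrays spread widest for Il1b and Il1r2 (SD 1.17 and 2.04, n = 4), so they weigh most in the values of those 2 genes. Correlations within single groups were not computed. Il1b and Il1r2 still ran together (r = 0.846, 16 arrays), as did Il1r2 with Il1rn (0.816) and Il1rn with Il1r1 (0.766). The genes most like Il1b in this sense were Ccl12 (0.910), Wfdc18 (0.898) and Csta1 (0.891), those most like Il1r2 were Slfn4 (0.947), Csta1 (0.936) and Stfa2l1 (0.929), and those most like Il1rn were Clec4e (0.936), Clec4d (0.922) and A530032D15Rik (0.916). Il18 ran with none of the other 7 genes above r = 0.334, the value for Il1a, and was most like Tmem14c (0.881), Rab11a (0.877) and Rer1 (0.869).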

How the data were processed

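Each sample has 1 scanner text file. The deposited processed signal is an intensity from which, per the file headers, the scanner software (Agilent Feature Extraction 10.5.1.1) removed background and spatial trend, without normalizing arrays to each other. The deposited value table is the same linear intensity (largest relative difference 0, medians 30.6 to 90.9). Median spot and local background signals, also deposited intensities, served an alternative. The deposited 0 or 1 marks gave spots well above background, saturated spots (0 found) and outlying spots (71 to 124 per array, left out).

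Each array's 75th percentile (all non-control probes) was subtracted from the log2 of the deposited signal, and spots of a probe were averaged. Symbols came from the GRCm38.p6 annotation through RefSeq accessions, for 23374 of 41174 probes. Array and annotation use different builds, so no probe positions are given. Genes entered a test when at least 4 of the fitted arrays had the brightest probe well above background. Tests were two-sided in limma 3.58.1 (R 4.3.3, lmFit and eBayes), adjusted over all genes tested by Benjamini-Hochberg, at a threshold of 0.05. ADSC against PBS used 8 arrays in each sample type, and the other contrasts 1 fit of all 16. The fits were tested on simulated data. Folds written as at least take, on each array of the dim group, the larger of 2 signals (that of the probe, and the dimmest that is still well above background).

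Members and gene lists were chosen with earlier results of these data known. The 8 genes are always named. Of the pathway lists, genes past the threshold are named, else the 3 with the smallest p (a few others, such as Cxcl1, were added after their values were seen), and the 3 genes most alike by correlation are given for a gene. Alternatives changed the background correction, the scaling, the filter, the probe rule, the source of the values, slide, scan day, array weights, the samples and the replicate block.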

Additional observations from a re-analysis of the deposited data

Results flagged for a closer look

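Among 31 genes and probes in groups of 4 arrays, 5 of 124 groups held an array whose gap to its nearest neighbour exceeded Dixon's critical share of the group's range. Chance flags about 1 in 20 groups. None of the 5 belonged to the 8 genes.

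Mefv in liver ADSC 7 stood at 0.55, with the other liver ADSC arrays between -0.21 and -0.11. Mefv in inflammatory cells PBS 12 stood at 3.71, with the other 3 at 3.63. Il1f9 in liver ADSC 9 was at -4.39, with the others between -5.89 and -5.82, and was not well above background on any of the 4 arrays. Irak3 in inflammatory cells ADSC 8 was at -0.33, with the others between -0.14 and -0.13. Tab2 in inflammatory cells PBS 13 was at 1.75, with the others between 2.18 and 2.26.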

How the results depend on the processing

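Of the 8 genes, 2 passed for ADSC against PBS in inflammatory cells, and between 0 and 3 passed with 1 array left out (68 to 507 of all genes, against 243). The number was 1 with the percentile over probes detected on all arrays (143 genes), 1 with quantile normalization (219), 0 without a filter on dim probes (109), 4 with slide as a random block (820), 0 with slide as a fixed block (0 genes, and 5368 at an unadjusted p under 0.05), 4 with array weights (4393) and 0 without the 3 pancreas-rich arrays (0). It was 3 with all 16 arrays in 1 fit (918), where Il1r2 lost its call (adjusted p = 0.109) while Il18 (0.0100) and Il1rn (0.0343) passed. Il1b passed in 9 and Il1r2 in 10 of 14 other settings, with estimates from -2.31 to -1.44 and from -2.47 to -1.78. Among these settings, the deposited value table holds the same values as the main fit, so its passes were fixed in advance. With slide as a random block Il18 and Il1rn passed too, at adjusted p-values of 0.0277 and 0.0436. In liver 0 of the 8 passed in any setting run, while array weights called 34 genes and the 16-array fit 9. Nlrp3 in inflammatory cells ranged from -0.011 to 0.26 with 1 array left out. Among pathway genes, Irak4 was 0.080 under normexp and Cxcl1 -0.089 with slide fixed in inflammatory cells, and Il18bp in liver was -0.19 with array weights and -0.095 to 0.16 with 1 array left out.

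In liver, slide as a fixed block turned the sign of Il1b (0.29), Il1rn (0.35), Il18 (-0.26), Il1r1 (0.31), Il1r2 (0.39) and Casp1 (0.32), and scan day as a term that of Il1b (0.086), Il1rn (0.22), Il18 (-0.16), Il1r1 (0.31), Il1r2 (0.10) and Casp1 (0.15). The slide estimates rest on ADSC 7 against PBS 13 alone, and the scan day estimates on ADSC 7 and 9 against PBS 13. They repeat the differences within that slide and day and are not a second check. Nlrp3 was 0.18 under normexp. With 1 array left out, liver Il18 ran from -0.028 to 0.12 and Nlrp3 from -0.43 to 0.10.

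Against liver, 7 genes passed after each treatment, and 4 after each when a probe had to be above background on every array, which leaves fewer genes tested (9642 passed after ADSC, 9143 after PBS). The calls then split 4306 higher of 9642 after ADSC and 4369 of 9143 after PBS, against 10045 of 17395 and 9951 of 16809. Il1rn after PBS was -0.27 as the mean of its probes. Scaling on detected probes put the all-gene median at 0.78 after ADSC and 0.63 after PBS, against 0.36 and 0.35, and in inflammatory cells ADSC against PBS to 0.18, against 0.03. Quantile normalization gave 0.22 after ADSC and 0.20 after PBS, and with normexp 0.12 and 0.11.

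For the interaction, array weights gave 1 gene (Il18, -1.07, adjusted p = 0.0306, with 954 of all genes). The sign turned for Il1a (-0.26), Il1r1 (0.050), Il1r2 (-0.76) and Nlrp3 (-0.030) under normexp, for Il1a (-0.32) and Il1r2 (-0.46) under normexp with quantile normalization, for Il1r1 (0.0051) with the detected-probe percentile, for Il1a (-0.051) with the mean of probes, and for Il1r2 with slide (-0.25) or scan day (-0.87) as a term. With 1 array left out, Il1a ran from -0.018 to 1.00, Il1b from -0.80 to 0.11, Il1r1 from -0.32 to 0.030, Il1r2 from -0.55 to 1.08 and Nlrp3 from -0.37 to 0.56. Except as stated, the cause was not tested.

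With the label number as a replicate block, 7, 7 and 0 of the 8 genes passed after ADSC, after PBS and for the interaction (17380, 16801 and 7 of all genes), as without it. Deviations of arrays with the same number correlated between -0.06 and 0.17, and numbers 7, 9 and 12 were the ones that matched best with themselves, so the numbers are not taken to pair samples. ADSC and PBS share no numbers, so no block could be made there. Probes near background limit Il1a and Nlrp3 in liver.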

Other observations

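Between inflammatory cells and liver, 9 of 17 IL-1 target genes tested with limma were higher in inflammatory cells and 4 lower after ADSC, beside 45.4% and 33.2% of all genes tested. After PBS 9 were higher and 3 lower, beside 44.9% and 31%. These shares are near the background. After ADSC, the acute phase genes Saa2 and Saa1, made by hepatocytes, were lower in inflammatory cells than in liver, at -7.61 ± 0.58 and -3.51 ± 0.37 (SE, log2 difference). Cxcl2, a neutrophil-attracting chemokine, averaged 3.72 ± 0.33 (SD, n = 4) in inflammatory cells after ADSC and was well above background on 1 of 4 liver arrays. All 14 isolation stress genes were higher in the same comparison, and their part in it was not tested.

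Of 6 IL-1 receptor and binding protein genes tested, 3 were higher and 3 lower in inflammatory cells after ADSC, and 3 higher and 2 lower after PBS, also near the background. After ADSC, the IL-18 receptor chain Il18r1 was higher in inflammatory cells than in liver (log2 difference 3.25 ± 0.27, SE). The IL-1 receptor partner Il1rap was lower there than in liver, at -3.83 ± 0.34 (SE). Il18rap and Il1f9 were well above background on 4 of 4 inflammatory-cell arrays after ADSC and on 0 of 4 liver arrays. Il33, a ligand released by damaged cells, was well above background on 1 of 4 inflammatory-cell arrays after ADSC and on 4 of 4 liver arrays.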
